A study of Mus musculus with 12 samples.

Results

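Gene expression was compared between 5 mouse tumours and 1 sample of normal skeletal muscle. All 5 tumours carried the genotype HprtCre, Ewsr1-loxP and Atf1-loxP, and the muscle was labelled WT. In the tumour mice Cre came from the X-linked Hprt locus, a gene active in nearly all tissues, and loxP sites lay in Ewsr1 and in Atf1, so that recombination joins the mouse genes into the Ewsr1-Atf1 fusion. The members were all the libraries of that genotype and the muscle library, 6 of the 12 libraries of the series, and the 6 tumours with the fusion expressed from Rosa26 were left out. Per the labels no drug was given, and tissue was snap-frozen once the primary tumour caused morbidity. No age and no body site is given. The title of the muscle sample begins with the number that also begins the title of tumour 1, and tumours 2 and 5 share a number in the same way. The labels do not say whether such samples came from 1 animal. With a single muscle library no spread of muscle could be measured, so every p-value takes its spread from the 5 tumours and assumes that muscle varies like them. Nothing in the labels says that the tumours came from separate animals, so the p-values reflect only sample-to-sample spread, part of which may be technical. An exact permutation over the 6 libraries cannot go below a one-sided p of 0.167, and none was run.

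EWSR1-ATF1 is the fusion oncoprotein of clear cell sarcoma, a soft tissue tumour of tendons and deep tissue that often carries melanocytic markers. It joins the activation domain of EWSR1, an RNA-binding protein of the FET family, to the DNA-binding domain of ATF1, a member of the CREB family that binds cAMP response elements. Skeletal muscle is a tissue of fused, non-dividing fibres filled with sarcomeres, with a calcium store that triggers contraction and an energy supply built on glycogen, creatine phosphate and fatty acid oxidation. In this design what goes with the fusion and what goes with any dividing tumour cannot be told apart.

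Total counts were 9010161, 2963088, 19914053, 16586565 and 21248636 in tumours 1 to 5 and 25037628 in muscle. Levels are given as CPM, counts scaled to the size of the library, after correction by TMM, a method that sets the bulk of the genes equal between libraries. On this scale 3 counts were worth 1.16 CPM in tumour 2 and 0.11 to 0.273 CPM in the other libraries. Transcripts with ribosomal sequence took 37.8% of the counts of tumour 2 and 0.758% to 7.38% elsewhere. Tumour 5 stood apart, with a Spearman correlation of 0.748 to 0.793 with the other tumours over 20869 genes. The 4 Y-linked genes read had 808 to 2482 counts in tumour 5 and 0 in the other tumours and in muscle, so tumour 5 and tumour 2, whose titles share a number, differed in these genes.

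Of 20869 genes tested, 2297 (11%) lay above muscle in all 5 tumours by at least 1 on the log2 scale, and 2672 (12.8%) lay below muscle by the same rule. These shares are the background for the list counts that follow. The genes below muscle held 76.0% of all muscle counts but 9.86% to 21.6% of the counts of each tumour. The genes above muscle held 9.75% to 20.6% of tumour counts and 0.485% of muscle counts. Of the 100 genes with the highest CPM in muscle, 85 were below muscle in all 5 tumours and 0 were above, with the muscle value used in the choice. Of the 100 genes whose lowest tumour value was highest, 18 were above and 14 below. The choice of scale moved the split. With total counts alone as the scale, the median log2 fold change of all genes moved by 1.44, and the rule gave 5141 genes above and 1021 below. In the quasi-likelihood test of edgeR, adjusted by Benjamini-Hochberg at 0.05, 71 genes (0.34%) were higher and 650 (3.11%) lower in the tumours. All 721 also met the same-side rule. The number of calls changed with single libraries. The test called 0 genes without tumour 1, 3 or 4 (3382, 3443 and 3332 genes at an unadjusted p under 0.05, and 2583, 2389 and 2292 genes by DESeq2), 377 without tumour 2 and 3259 without tumour 5. An edgeR call named in what follows is therefore one of all 6 libraries together, and each is lost without tumour 1, 3 or 4. Without tumour 5, 3644 genes were above muscle and 3590 below by the same-side rule. At the extremes, 60 genes had 0 counts in all 5 tumours and more than 3 in muscle, and 51 genes had 0 counts in muscle and at least 10 in every tumour.

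**Figure D1:**
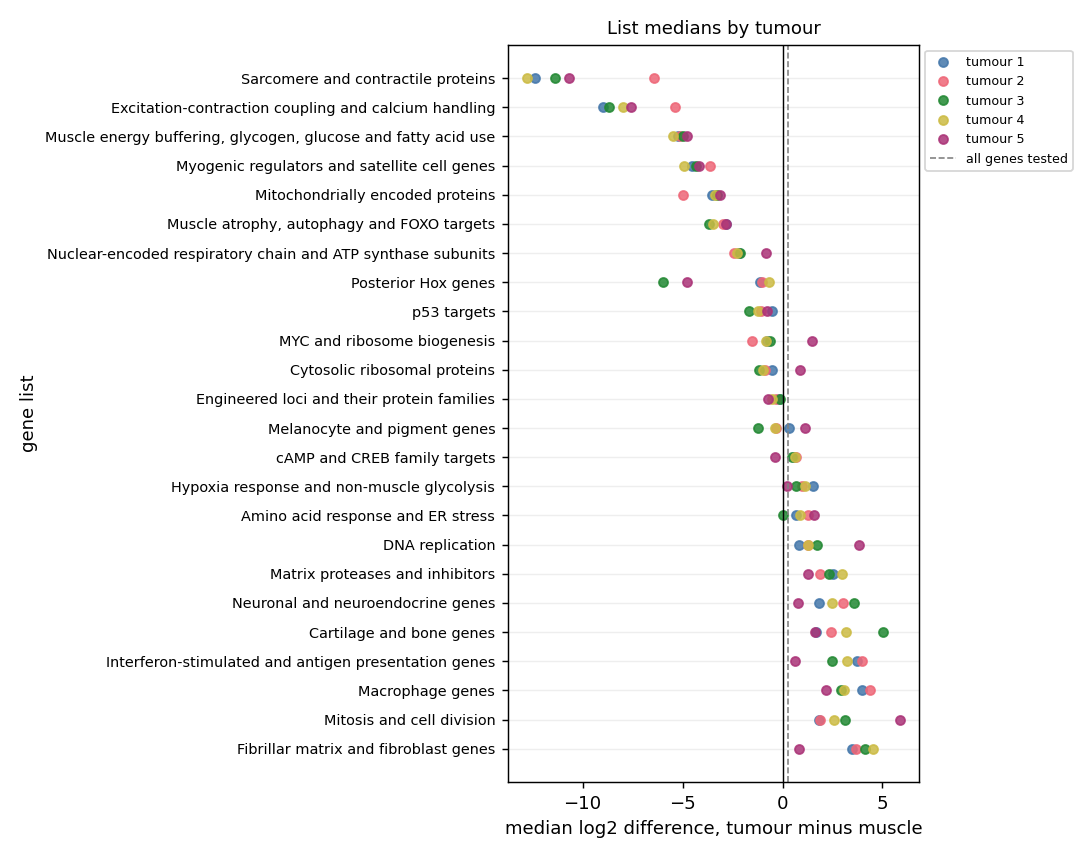
Median log2 difference from muscle (x axis, log2 CPM in the tumour minus log2 CPM in muscle) over the tested members of 24 gene lists (rows), with 1 point per tumour and a dashed line at the median over all genes tested. The muscle lists lie far to the left in every tumour, with tumour 2 nearest to muscle for the sarcomere and calcium handling lists, and tumour 5 lies to the right of the others for mitotic, replication and ribosome biogenesis genes.

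The engineered loci served as a check of the labels, although counts per gene cannot separate the normal from the fused allele. Atf1 stood at 40.4, 57.0, 34.8, 30.5 and 52.2 CPM in tumours 1 to 5 and 89.3 CPM in muscle. The tumours were all lower than muscle, with the nearest tumour closer than 1 on the log2 scale, and Atf1 did not pass the edgeR test (adjusted p = 0.288). With total counts as the scale its log2 fold change turned from -1.06 to 0.34. Ewsr1 had 108, 65.5, 119, 88.6 and 184 CPM in tumours 1 to 5 and 135 CPM in muscle, so muscle lay inside the tumours' range. Hprt, the purine salvage gene whose locus carries Cre, had 19.7, 21.6, 17.3, 14.2 and 4.25 CPM in tumours 1 to 5 and 43.4 CPM in muscle, below muscle in all 5 tumours at the edge of the 1 log2 rule, and it also missed the threshold (edgeR adjusted p = 0.31). Crem, a CREB family gene that is itself induced by cAMP, ranged from 22.1 to 364 CPM around a muscle level of 47.1 CPM, lowest in tumour 1 and highest in tumour 5. The coactivator Crebbp had 56.7 to 89.7 CPM in the tumours and 211 CPM in muscle, without passing (edgeR adjusted p = 0.15). Over the 12 genes of the FET, CREB and coactivator list, 0 lay above muscle and 2 below, Hprt and Crebbp (16.7%, against 12.8% of all genes). None of the 12 passed the edgeR test. With total counts as the scale 2 of the 12 lay above and 0 below.

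Among the 543 genes below muscle, clone names left out, that had 50 CPM or more in muscle and were called by edgeR, the 12 whose nearest tumour lay furthest from muscle were taken, so that their adjusted p-values are under 0.05 by this choice. They were led by Ucp3, the mitochondrial uncoupling protein of muscle (chr7:100472990-100486432). It had 0 counts in all 5 tumours and 3399 counts (309 CPM) in muscle, at least 8987-fold lower against a floor of 3 counts over the tumour libraries (edgeR adjusted p = 0.0215). Odf3l2 had 0 counts in tumours 1, 2, 4 and 5, 1 count in tumour 3 and 795 in muscle. The ratio of muscle to the pooled tumours was 6306 with an exact 95% counting interval of 1129 to 249395. Abra, an actin-binding activator of muscle transcription, had 0, 1.93, 0.183, 0 and 0 CPM in tumours 1 to 5 and 842 CPM in muscle. Myoz2, a Z-disc protein that binds calcineurin, had 0.0861, 1.16, 0.073, 0 and 0.125 CPM in tumours 1 to 5 and 507 CPM in muscle. The tumours thus held the Z-disc gene at or near 0, and the mean log2 difference was -10.85 ± 1.30 (SD, n = 5). The value of tumour 2 is 3 counts, the floor of that library, and tumour 5 also had 3 counts. Pdk4, the kinase that shuts off pyruvate dehydrogenase in fasting muscle, kept a low level, with 11.3, 11.2, 5.55, 1.62 and 9.67 CPM in tumours 1 to 5 and 4080.3 CPM in muscle. It fell by 9.03 on the log2 scale in the edgeR fit (SE 0.95, adjusted p = 0.0172). The others chosen by the same rule fell as well: Rpl3l, Ctxn3, Ppp1r3a (a glycogen-targeting phosphatase subunit), Myh7 (slow myosin), Art3, Actn2 (Z-disc actinin) and Tmod4 (a thin-filament cap). Their muscle levels ran from 489 to 6411 CPM and no tumour exceeded 30.4 CPM, the value of Actn2 in tumour 2.

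**Figure D2:**
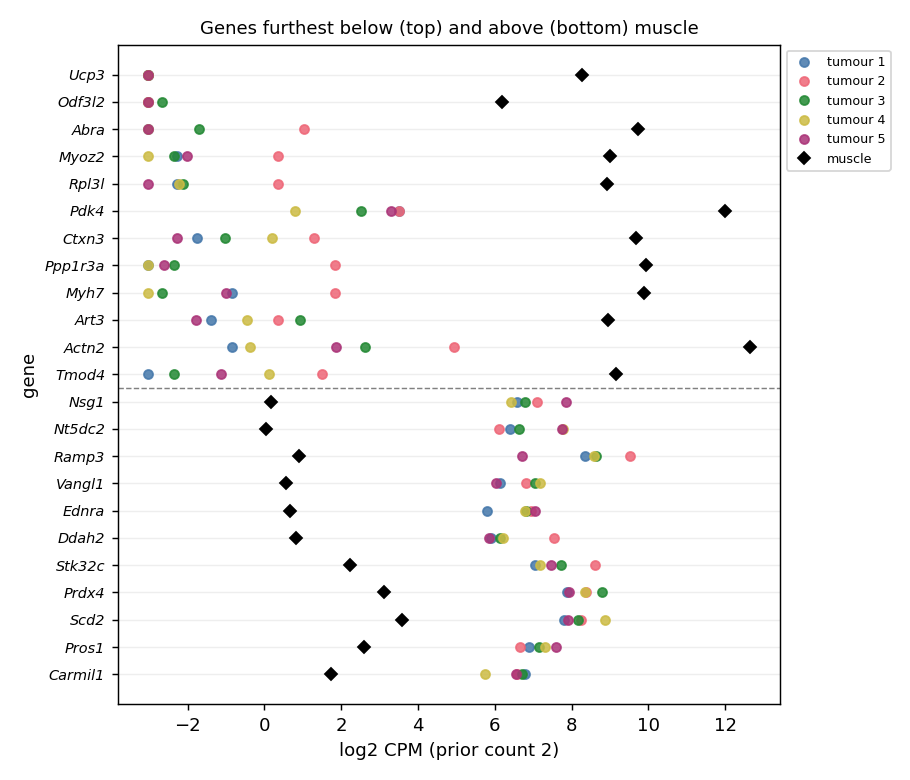
Level of the 12 genes furthest below and 11 of the 12 furthest above muscle among those called by edgeR (rows) on the log2 CPM scale with a prior count of 2 (x axis), with circles for the 5 tumours and a diamond for muscle. In each row all 5 circles lie on 1 side of the diamond by the choice of genes. For most of the genes below muscle the circle nearest to the diamond is tumour 2.

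All 46 sarcomere genes tested lay below muscle in all 5 tumours, against 12.8% of all genes, and 14 of them passed the edgeR test. The median difference over the list was -10.90 log2, where all genes tested had a median of 0.25. Fast myosin Myh4, the motor of type IIb fibres, had 3.19, 833, 0.329, 0 and 0.125 CPM in tumours 1 to 5 and 103552 CPM in muscle. Titin (Ttn), the molecular spring of the sarcomere, had 9.90, 2574, 52.2, 3.48 and 124 CPM in tumours 1 to 5 and 171279.9 CPM in muscle. Nebulin (Neb), the ruler of the thin filament, had 4.82, 236, 7.63, 1.53 and 355 CPM in tumours 1 to 5 and 54054 CPM in muscle. Tumour 2 was the highest tumour for Myh4 and Ttn and tumour 5 for Neb. All 3 genes lay below muscle in every tumour, and none passed the edgeR test (adjusted p = 0.234, 0.155 and 0.0993). Trim63, the muscle ubiquitin ligase MuRF1, also missed the threshold, at 0.0464 to 9.63 CPM against 2194 CPM (edgeR adjusted p = 0.0541). Slow myosin Myh7, at 0.431, 3.47, 0.0365, 0 and 0.375 CPM in tumours 1 to 5 and 952 CPM in muscle, did pass. In bulk tissue, fewer muscle cells and less of a transcript per cell cannot be told apart.

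Tumour 2 held muscle transcripts at a low but common share of the muscle level. Over the 46 sarcomere genes its median was 1.16% of muscle, with quartiles of 0.707% and 2.22%. Tumours 1, 3, 4 and 5 had medians of 0.00853%, 0.0245%, 0.00247% and 0.0343%. Whether tumour 2 contained some muscle tissue was not tested. Without tumour 2 all 46 sarcomere genes were again below muscle. That outcome was nearly fixed in advance, since all 46 were below in all 5 tumours. In tumour 5, 2 muscle genes, picked after their values were seen, lay above muscle. Casq2, the cardiac form of the calcium-store protein calsequestrin, had 4.22, 77.8, 2.52, 15.4 and 2255 CPM in tumours 1 to 5 and 165 CPM in muscle, so that tumour 5 exceeded muscle and the other tumours did not. Mstn, the secreted inhibitor of muscle growth myostatin, had 0.0861, 0, 0.11, 0 and 198 CPM in tumours 1 to 5 and 148 CPM in muscle.

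Promoter windows from RefSeq (GRCm38.p6) were searched for the sites of muscle regulators, because the sarcomere list was below muscle as a whole. A window ran from 250 bases before to 50 bases after the annotated start, 1 window per gene, and 12857 of the 20869 genes tested had one. On either strand, the CArG box bound by SRF was found in 5 of 34 sarcomere genes (14.7%) and in 1.36% of all windows. The MEF2 site was found in 6 of them (17.6%) and in 1.93% of all windows. The 150 bases before the start of skeletal actin Acta1 (chr8:123894776-123894925, minus strand) and of Myoz2 (chr3:123034988-123035137, minus strand) are shown as 1 example of each, with the CArG box of Acta1 and the MEF2 site of Myoz2 in capitals.
Acta1: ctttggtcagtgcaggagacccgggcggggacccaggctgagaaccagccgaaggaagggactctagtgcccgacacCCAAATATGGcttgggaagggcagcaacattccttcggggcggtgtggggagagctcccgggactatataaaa
Myoz2: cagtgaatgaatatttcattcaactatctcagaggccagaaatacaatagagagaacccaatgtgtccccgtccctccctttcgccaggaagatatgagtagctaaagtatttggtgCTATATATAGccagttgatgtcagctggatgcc
Acta1 itself had 1.38, 668, 3.58, 0.0464 and 2.08 CPM in tumours 1 to 5 and 43988 CPM in muscle. A match in these letters is a description and shows no binding.

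Genes that couple excitation to calcium release followed the sarcomere, with 31 of 33 below muscle in all 5 tumours, 0 above and 11 lower by edgeR. Atp2a1, the fast-fibre calcium pump, had 3.88, 763, 1.64, 0.0927 and 0.292 CPM in tumours 1 to 5 and 52122 CPM in muscle. Ryr1, the calcium release channel, had 1.38, 297, 1.35, 0.325 and 3.34 CPM in tumours 1 to 5 and 11271 CPM in muscle. Both were low in 4 tumours and far higher in tumour 2, and neither passed the edgeR test (adjusted p = 0.223 and 0.187). Cacng1, a subunit of the voltage sensor, fell in all 5 tumours, with 0.344, 4.62, 0.365, 0.325 and 0.375 CPM in tumours 1 to 5 and 662 CPM in muscle (edgeR log2 fold change -9.51 ± 1.34 (SE), adjusted p = 0.0207). Sgca, alpha-sarcoglycan of the membrane complex that anchors dystrophin, also fell, from 287 CPM to 0 to 2.31 CPM (edgeR adjusted p = 0.0353).

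Of the 20 regulators of the myogenic programme, 15 lay below muscle in all 5 tumours, 0 above, and 4 passed the edgeR test, all lower. Myod1, the founding myogenic transcription factor, was counted in tumour 4 alone, at 0.278 CPM, against 21.6 CPM in muscle (edgeR adjusted p = 0.0472). Myf6, the regulator of adult fibres, had 0.258, 3.85, 0, 0 and 0 CPM in tumours 1 to 5 and 198 CPM in muscle, and Pax7, the marker of satellite cells, had 0 counts in all tumours and 2.28 CPM in muscle. Neither passed (edgeR adjusted p = 0.09 and 0.134). Among the MEF2 factors, which act with the myogenic factors, Mef2c had 5.08, 13.9, 44.8, 11.9 and 2.21 CPM in tumours 1 to 5 and 1855 CPM in muscle and fell by 6.89 log2 (SE 1.19, edgeR adjusted p = 0.0323). Mef2d had 41.7, 42.4, 38.9, 28.6 and 16.5 CPM in tumours 1 to 5 and 258 CPM in muscle and fell by 2.94 log2 (SE 0.53, edgeR adjusted p = 0.0347). Mef2a ranged from 54.2 to 197 CPM in the tumours, below the 431 CPM of muscle, and did not pass (edgeR adjusted p = 0.167).

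Genes of muscle fuel use followed. Of 40 tested, 36 lay below muscle in all 5 tumours, 0 above, and 22 passed the edgeR test, with a list median of -5.19 log2. Aldolase A (Aldoa), a glycolytic enzyme that all cells use, had 708, 1011, 614, 604 and 1495 CPM in tumours 1 to 5 and 32226 CPM in muscle and fell by 5.18 log2 (SE 0.94, edgeR adjusted p = 0.0353). Eno3, the muscle enolase, had 9.39, 64.0, 274, 43.9 and 17.4 CPM in tumours 1 to 5 and 8763 CPM in muscle and missed the threshold (edgeR adjusted p = 0.0558), with tumour 3 the nearest to muscle. Ckm, the muscle creatine kinase that buffers ATP, had 0.431, 349, 0.365, 0.139 and 0.709 CPM in tumours 1 to 5 and 22409 CPM in muscle, again with tumour 2 apart. Art3, an ectoenzyme of the ADP-ribosyltransferase family, fell to 0.167 to 1.79 CPM from 489 CPM.

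Nuclear genes of oxidative phosphorylation had 17 of 50 below muscle in all 5 tumours, 0 above and 4 lower by edgeR, with a median of -1.98 log2. Without tumour 5 44 of 50 were below muscle, and with total counts as the scale 4 were. Atp5b, the catalytic subunit of ATP synthase, had 735, 607, 1021, 709 and 2792 CPM in tumours 1 to 5 and 4376 CPM in muscle, and Atp5a1 had 422, 443, 514, 434 and 1796 CPM in tumours 1 to 5 and 2984 CPM in muscle. In both, tumour 5 stood well above the other tumours and below muscle, and neither passed (edgeR adjusted p = 0.326 and 0.283). Of 11 mitochondrially encoded genes tested, 10 lay below muscle in all 5 tumours, and mt-Nd2 and mt-Nd3 passed the edgeR test. Complex I subunit mt-Nd2 had 305, 145, 309, 298 and 454 CPM in tumours 1 to 5 and 5780.0 CPM in muscle (edgeR log2 fold change -4.26 ± 0.73 (SE), adjusted p = 0.0311). Complex IV subunit mt-Co1 had 7351, 2323, 5031, 4624 and 5382 CPM in tumours 1 to 5 and 43677 CPM in muscle, and cytochrome b (mt-Cytb) had 1289, 493, 1570.5, 1477 and 1599 CPM in tumours 1 to 5 and 15388 CPM in muscle. Tumour 2 was the lowest for all 3 genes. The other 2 mitochondrial cytochrome oxidase genes, mt-Co2 and mt-Co3, and mt-Atp6, picked after their values were seen, had only 62, 147 and 49 counts in muscle, and mt-Nd3 had 269. Reads of these genes may be shared with near-identical nuclear copies, so their values are uncertain.

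Many muscle enzymes have a sister gene that serves other tissues, and 28 such pairs were compared. All 28 muscle forms lay below muscle in all 5 tumours. Of the 28 other forms, 12 lay above muscle, 0 below and 16 neither, where 11% of all genes lay above and 12.8% below. Cox6a2, the heart and muscle form of a cytochrome oxidase subunit, had 0.172, 12.3, 0.219, 0.0927 and 0.208 CPM in tumours 1 to 5 and 469 CPM in muscle. Its sister Cox6a1 had 148, 163, 96.8, 123 and 214 CPM in tumours 1 to 5 and 8.83 CPM in muscle, above muscle in every tumour (edgeR adjusted p = 0.0462). Per length, the muscle form made up 98.2% of the pair in muscle and 0.0778% to 7.24% in the tumours. Cox8b made up 91.5% of the Cox8 pair in muscle and at most 4.56% in the tumours, and Cox8a had 97.1 to 295 CPM against 46.1 CPM. A pair of ribosomal proteins followed the same order. Rpl3l, the ribosomal protein of striated muscle, had 0.0861, 1.16, 0.11, 0.0927 and 0 CPM in tumours 1 to 5 and 489 CPM in muscle and fell by 11.73 log2 (SE 1.34, edgeR adjusted p = 0.0173). Its ubiquitous sister Rpl3 had 564, 530.3, 391, 464 and 1440.2 CPM in tumours 1 to 5 and 167 CPM in muscle, above muscle in all 5 tumours but not past the edgeR threshold (adjusted p = 0.331). The Rpl3l share of the pair per length was 85% in muscle and at most 0.42% in a tumour. Elongation factor Eef1a2 made up 32.7% of its pair in muscle and at most 0.394% in the tumours.

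In glycolysis, the muscle phosphoglycerate mutase Pgam2 fell to 0.0417 to 5.01 CPM from 693 CPM (edgeR adjusted p = 0.0489), and its sister Pgam1 lay above muscle, at 18.9 to 104.9 CPM against 1.91 CPM (adjusted p = 0.149). Phosphofructokinase kept the muscle form Pfkm as 59.0% to 84.3% of its pair with Pfkp, against 99.9% in muscle. Creatine kinase varied with tumour 2. Ckb, the brain form, had 44.2, 52.0, 101, 31.5 and 176 CPM in tumours 1 to 5 and 2.09 CPM in muscle, and Ckm took 87.0% of the pair in tumour 2 but at most 0.959% in the others. Beside Pdk4, its sister kinase Pdk3 lay above muscle, at 16.8 to 33.0 CPM against 1.55 CPM (edgeR adjusted p = 0.0537). Filamin A (Flna) had 483, 444, 935, 1362 and 846 CPM in tumours 1 to 5 and 81.1 CPM in muscle, while the muscle filamin Flnc had 52.2, 126, 13.4, 84.0 and 14.4 CPM in tumours 1 to 5 and 5576 CPM in muscle. All 5 tumours lay above muscle for Flna, as for 23.7% of all genes by any size. They lay below it for Flnc, as for 25.1% of all genes. Flnc alone passed the edgeR test (adjusted p = 0.0305 against 0.159 for Flna). Across the 28 pairs the share of the muscle form was lower in all 5 tumours than in muscle in 27, where Fbp2 and Fbp1 gave no share in tumour 3 because neither was counted. The mitochondrial creatine kinases Ckmt2 and Ckmt1 were the exception, since Ckmt2 was the only form counted in tumour 4. In 10 of the 27 pairs led by the muscle form in muscle, it made up under 50% in every tumour. The scaling between libraries does not enter these shares.

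**Figure D3:**
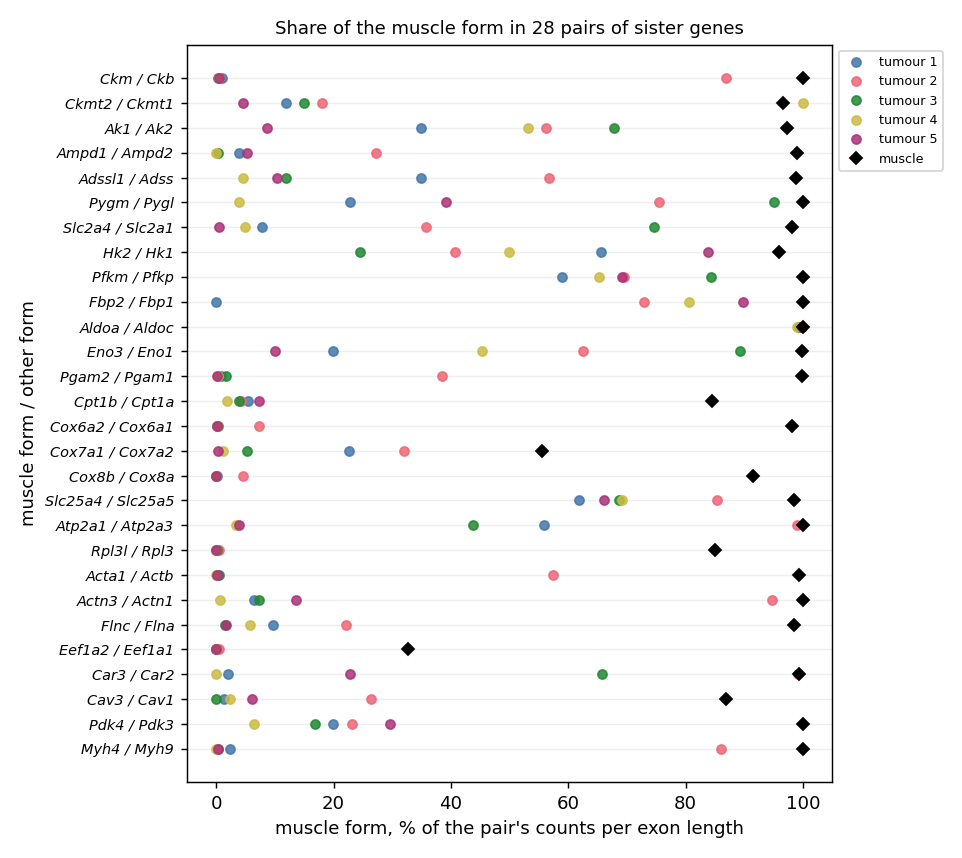
Share of the muscle form in each of 28 pairs of sister genes (rows), as percent of the pair's counts per exon length (x axis), with circles for the 5 tumours and a diamond for muscle. Muscle lies near the right edge for most pairs and the tumours lie to its left, with tumour 2 close to muscle for creatine kinase and carbonic anhydrase.

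Genes of muscle wasting and autophagy had 12 of 18 below muscle in all 5 tumours, 0 above and 7 lower by edgeR. Fbxo32, the atrophy ubiquitin ligase atrogin-1, had 32.6, 45.5, 30.0, 23.8 and 66.8 CPM in tumours 1 to 5 and 2661 CPM in muscle and fell by 6.07 log2 (SE 0.65, edgeR adjusted p = 0.0172). Sqstm1, the autophagy receptor p62, had 169, 229, 137, 154 and 89.6 CPM in tumours 1 to 5 and 1654 CPM in muscle and fell by 3.41 log2 (SE 0.60, edgeR adjusted p = 0.0333). No tumour came within 1 log2 of muscle for either gene, and the tumours spread over less than 2 log2.

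Among the 21 genes above muscle, clone names left out, that had 50 CPM or more in every tumour and were called by edgeR, the 12 whose nearest tumour lay furthest from muscle were taken. Their adjusted p-values are under 0.05 by this choice. Nsg1, a neuronal endosome protein (chr5:38137192-38159907), had 95.7, 137, 111, 85.1 and 232 CPM in tumours 1 to 5 and 1.0 CPM in muscle and rose by 7.03 ± 1.11 log2 (SE, edgeR adjusted p = 0.0257). Ramp3, a receptor activity-modifying protein that turns the calcitonin receptor-like receptor toward adrenomedullin, had 329, 731, 398, 385 and 104.7 CPM in tumours 1 to 5 and 1.73 CPM in muscle. Tumour 5 was the lowest for Ramp3. That no tumour overlapped muscle in these genes follows from the choice as well. Ednra, the endothelin A receptor, had 55.8, 124, 112, 111 and 132 CPM in tumours 1 to 5 and 1.46 CPM in muscle and rose by 6.19 ± 0.93 log2 (SE, edgeR adjusted p = 0.0232). Vangl1, a planar cell polarity protein, had 70.3, 113, 131, 145 and 65.0 CPM in tumours 1 to 5 and 1.37 CPM in muscle (edgeR adjusted p = 0.0251). Prdx4, a peroxiredoxin of the endoplasmic reticulum, had 235, 333, 439.5, 328 and 246 CPM in tumours 1 to 5 and 8.46 CPM in muscle, and with Pros1 it had the smallest SD among the 12. Scd2, a fatty acid desaturase, had 223, 304, 288, 465 and 240.1 CPM in tumours 1 to 5 and 11.8 CPM in muscle, and Pros1, the anticoagulant protein S, had 118, 101, 143, 157 and 194 CPM in tumours 1 to 5 and 5.92 CPM in muscle. Each of the last 3 rose (edgeR adjusted p = 0.0333, 0.0438 and 0.0326). The others taken by the rule were Nt5dc2, Ddah2 (which degrades an inhibitor of nitric oxide synthase), Stk32c and Carmil1 (a regulator of actin capping), with log2 fold changes of 7.23, 5.76, 5.54 and 4.83. In all, 218 genes other than clone names lay above muscle at 50 CPM or more in every tumour.

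Cell division genes were mostly above muscle, with tumour 5 far above the other tumours. Of 25 mitotic genes, 19 lay above muscle (11% of all genes did), 0 below, and 0 passed the edgeR test. The list median was 3.22 log2. Top2a, the topoisomerase that untangles chromosomes, had 19.8, 42.4, 73.3, 51.6 and 536 CPM in tumours 1 to 5 and 4.28 CPM in muscle. Cdk1, the kinase that starts mitosis, had 9.13, 10.8, 23.8, 12.9 and 202 CPM in tumours 1 to 5 and 1.18 CPM in muscle, and its partner cyclin Ccnb1 had 4.65, 4.24, 8.18, 6.77 and 171 CPM in tumours 1 to 5 and 0.819 CPM in muscle. In each of these genes all 5 tumours lay above muscle and tumour 5 was the highest by far. Mki67, the proliferation antigen, had 38.0, 22.0, 50.3, 27.5 and 189 CPM in tumours 1 to 5 and 10.6 CPM in muscle. The adjusted p of these 4 genes ran from 0.286 to 0.362 by edgeR. Without tumour 5 the count of mitotic genes above muscle was again 19. This was no check, since genes above in all 5 tumours mostly stay above with 1 left out. DNA replication genes had 9 of 24 above and 0 below, and 19 above with total counts as the scale. Among them Tyms, which makes thymidylate, had 12.1, 10.4, 21.3, 20.1 and 95.8 CPM in tumours 1 to 5 and 1.0 CPM in muscle. The sliding clamp Pcna had 34.4, 41.2, 53.5, 50.5 and 264 CPM in tumours 1 to 5 and 28.1 CPM in muscle and did not reach 1 log2 in every tumour.

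The CCAAT box, bound by NF-Y, is a known feature of mitotic promoters. Its letters, CCAAT on either strand, were in 18 of 21 mitotic promoter windows (85.7%) and in 38.1% of all windows. Among genes above muscle the share was 40.5%, and among genes below muscle 35.5%. The 150 bases before the starts of Top2a (chr11:99024190-99024339, minus strand), Cdk1 (chr10:69352913-69353062, minus strand) and Ccnb1 (chr13:100786487-100786636, minus strand) are shown as examples of windows with a match. Capitals mark CCAAT or its complement.
Top2a: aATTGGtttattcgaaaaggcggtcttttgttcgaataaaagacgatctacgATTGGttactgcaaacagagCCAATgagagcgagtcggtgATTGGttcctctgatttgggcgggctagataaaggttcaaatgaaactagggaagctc
Cdk1: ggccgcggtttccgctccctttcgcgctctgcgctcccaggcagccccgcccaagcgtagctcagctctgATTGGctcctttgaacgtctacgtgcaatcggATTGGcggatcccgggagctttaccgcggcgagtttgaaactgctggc
Ccnb1: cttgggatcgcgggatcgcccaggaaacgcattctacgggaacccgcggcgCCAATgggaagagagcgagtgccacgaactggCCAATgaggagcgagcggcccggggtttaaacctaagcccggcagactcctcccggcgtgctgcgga
The windows hold 4, 2 and 2 matches within these bases.

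Of 21 ribosome biogenesis genes, 0 lay above muscle and 1 below, Rrp12, a factor of small-subunit assembly, which had 7.66, 8.09, 4.49, 4.36 and 14.1 CPM in tumours 1 to 5 and 106 CPM in muscle and fell (edgeR adjusted p = 0.028). Without tumour 5, 6 lay below. Myc, the transcription factor that drives these genes, had 19, 19.3, 8.03, 8.30 and 287 CPM in tumours 1 to 5 and 11.6 CPM in muscle. Nucleophosmin (Npm1) had 162, 132, 181, 193 and 1838 CPM in tumours 1 to 5 and 346 CPM in muscle, and nucleolin (Ncl) had 114, 91.0, 139, 99.96 and 662 CPM in tumours 1 to 5 and 477 CPM in muscle. In all 3 tumour 5 was above muscle and the highest tumour, and for Npm1 and Ncl the other 4 tumours were below muscle. Ribosomal proteins themselves had 1 of 40 above muscle, Rpl3, and 1 below, Rpl3l, while without tumour 5 the count below was 9. None of Myc, Npm1 and Ncl passed the edgeR test (adjusted p = 0.548, 0.865 and 0.577).

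**Figure D4:**
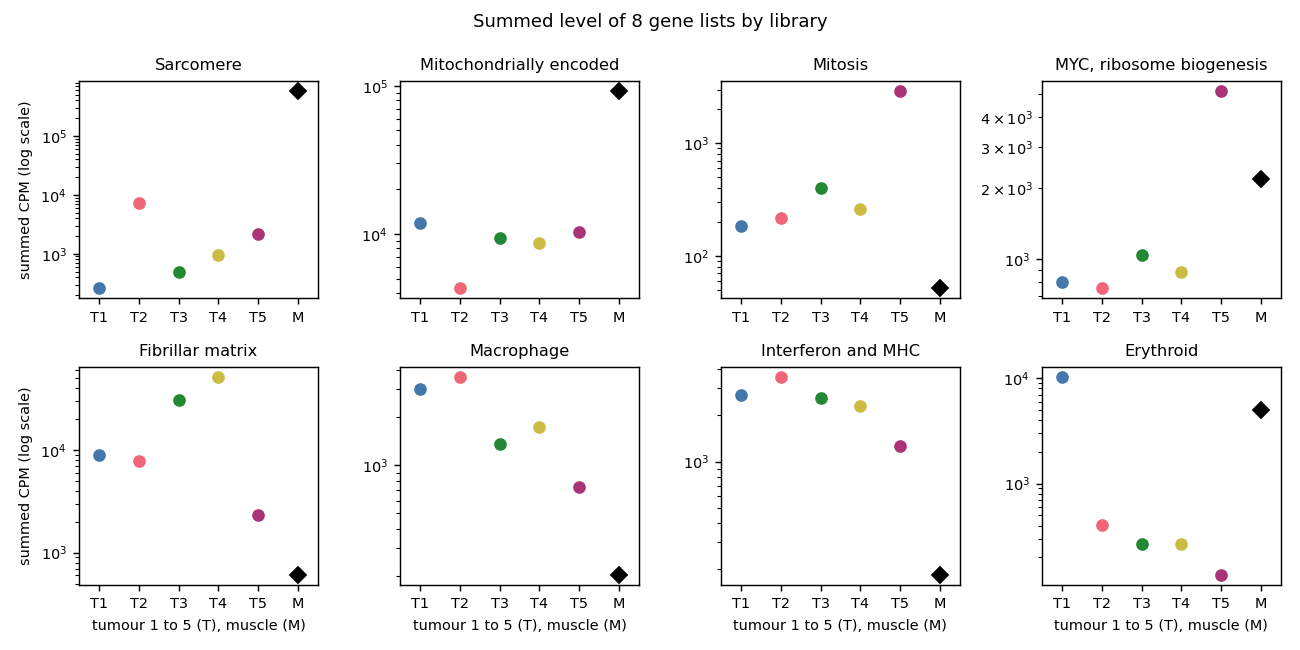
Summed level of 8 gene lists (panels; y axis, CPM on a log scale) in tumours 1 to 5 (circles) and muscle (diamond). Sarcomere and mitochondrially encoded genes lie below muscle in every tumour, mitotic genes above it with tumour 5 highest, and matrix and macrophage genes above it with tumour 5 lowest.

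Matrix genes were lowest in tumour 5. Of 27 collagen and fibroblast genes, 11 lay above muscle in all 5 tumours, 0 below, 0 passed the edgeR test, and without tumour 5 the count above was 20. The list median was 3.78 log2. Fibronectin (Fn1), the matrix glycoprotein, had 2933, 2386, 13888, 19020.2 and 609 CPM in tumours 1 to 5 and 28.2 CPM in muscle. The chains of type I collagen, the main fibre of tendon and bone, had 287, 385, 2324, 5015 and 37.7 CPM in tumours 1 to 5 and 13.7 CPM in muscle for Col1a1 and 1445, 462, 5367, 10728 and 56.5 CPM in tumours 1 to 5 and 35.4 CPM in muscle for Col1a2. Tumours 3 and 4 were the highest and tumour 5 the lowest for all 3 genes. Sparc, a collagen-binding glycoprotein, had 688, 568, 2274, 6379.6 and 482 CPM in tumours 1 to 5 and 88.9 CPM in muscle. Tissue plasminogen activator (Plat) had 56.7, 37.4, 601, 2223 and 65.0 CPM in tumours 1 to 5 and 5.01 CPM in muscle, and 5 of 20 matrix proteases and inhibitors lay above muscle in all 5 tumours, 0 below, and 11 above without tumour 5. These 5 genes, named for their level or fold, lay above muscle in every tumour, as did 23.7% of all genes by any size, and none passed the edgeR test, with an adjusted p of 0.297 for Sparc and 0.305 for Plat. Of 17 basement membrane genes 4 lay above muscle (23.5%, against 11% of all genes) and 3 below (17.6%, against 12.8%). With total counts as the scale 8 lay above and 1 below. Lama2, the laminin chain of the muscle basement membrane, was below muscle at 2.08 to 36.1 CPM against 226 CPM (edgeR adjusted p = 0.0995). Secreted Wnt antagonists had 0 of 10 above muscle in all 5 tumours and 0 below, and 5 above without tumour 5. Their summed level was 286, 149, 482 and 515 CPM in tumours 1 to 4, but 14.9 CPM in tumour 5 and 14.6 CPM in muscle.

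Of 15 cartilage and bone genes tested, 4 lay above muscle in all 5 tumours (11% of all genes did), 0 below, and 9 lay above without tumour 5. Osteopontin (Spp1) had 455, 53.2, 1407, 455 and 233 CPM in tumours 1 to 5 and 24.0 CPM in muscle, above muscle in every tumour. The cartilage collagen Col2a1 had 0.431, 2.31, 0.694, 0.0464 and 452 CPM in tumours 1 to 5 and 0.455 CPM in muscle, and bone sialoprotein Ibsp had 0.172, 0.771, 252, 11.9 and 0 CPM in tumours 1 to 5 and 0 CPM in muscle. Comp, a protein of tendon and cartilage matrix, had 90.2, 28.5, 63.4, 1569 and 0.125 CPM in tumours 1 to 5 and 0.546 CPM in muscle. Col2a1 was thus high in tumour 5, Ibsp in tumour 3 and Comp in tumour 4. Tendon genes had 1 of 5 above muscle, the regulator Mkx, with 1.89, 4.24, 7.15, 36.7 and 62.7 CPM in tumours 1 to 5 and 0.455 CPM in muscle, and 1 below, the regulator Scx, with 1.64, 2.31, 21.7, 28.5 and 1.5 CPM in tumours 1 to 5 and 71.9 CPM in muscle.

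Targets of cAMP signalling, the pathway that ATF1 normally serves, lay on both sides of muscle at shares near those of all genes. Of 25 tested, 3 lay above muscle in all 5 tumours (11% of all genes did), 3 below (12.8% of all genes) and 1 passed the edgeR test, while without tumour 5 the count above was 7 and without tumour 1 the count below was 6. Pde4d, a cAMP phosphodiesterase, had 188, 151, 199, 204 and 262 CPM in tumours 1 to 5 and 1747 CPM in muscle and fell by 3.12 log2 (SE 0.55, edgeR adjusted p = 0.0333). Another phosphodiesterase, Pde10a, had 70.4, 111, 229, 190.2 and 184 CPM in tumours 1 to 5 and 29.5 CPM in muscle, above muscle in every tumour but short of the edgeR threshold (adjusted p = 0.186). Rgs2, a brake on G protein signalling, had 265, 210.4, 416, 276 and 9.55 CPM in tumours 1 to 5 and 4.82 CPM in muscle, and secretogranin Scg2 had 47.2, 27.7, 521, 164 and 0 CPM in tumours 1 to 5 and 0 CPM in muscle. Both were high in tumours 1 to 4, while in tumour 5 Rgs2 was within 1 log2 of muscle and Scg2 had 0 counts. Areg, the EGF receptor ligand amphiregulin, had 54.1, 26.2, 1.5, 0.325 and 0.709 CPM in tumours 1 to 5 and 0.091 CPM in muscle, with tumours 1 and 2 high (edgeR adjusted p = 0.354). The full cAMP response element, TGACGTCA, was in 4 of 18 windows of the list (22.2%) and in 3.0% of all windows. The list is one of targets of this pathway, so its share describes the list and not the tumours. The element was in 2.99% of genes above and 3.33% of genes below muscle. Areg, Scg2, Pcsk1 and Dusp1 carry it, and of these Areg alone met the same-side rule, above muscle. The 150 bases before the starts of Areg and Scg2 (chr5:91139449-91139598, plus strand, and chr1:79440027-79440176, minus strand) have the element in capitals.
Areg: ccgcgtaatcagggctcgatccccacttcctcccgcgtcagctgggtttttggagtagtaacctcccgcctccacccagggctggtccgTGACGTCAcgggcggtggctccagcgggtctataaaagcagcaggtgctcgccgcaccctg
Scg2: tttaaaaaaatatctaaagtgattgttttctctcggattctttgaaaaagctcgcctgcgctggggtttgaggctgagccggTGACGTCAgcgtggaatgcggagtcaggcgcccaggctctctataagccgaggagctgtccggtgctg
The sites begin 61 and 68 bases before the start. The element reads the same on both strands.

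The melanocyte programme is a hallmark of the human tumour. Of 14 melanocyte genes tested 1 lay above muscle in all 5 tumours (7.1%, against 11% of all genes) and 0 below. The 1 above was Pmel, the pigment granule protein, which had 2.93, 1.16, 1.35, 1.72 and 0.75 CPM in tumours 1 to 5 and 0 CPM in muscle. Its value in tumour 2 is 3 counts, the floor of that library. The pigment enzyme Dct had 0.344, 0, 0, 0 and 269 CPM in tumours 1 to 5 and 0.091 CPM in muscle, the melanosome protein Gpnmb had 25.9, 3.47, 1.17, 3.94 and 428 CPM in tumours 1 to 5 and 27.5 CPM in muscle, and the lineage factor Mitf had 32.7, 20.8, 7.34, 17.9 and 146 CPM in tumours 1 to 5 and 71.7 CPM in muscle. Tumour 5 was the highest for each of these 3, and Mitf was below muscle in tumours 1 to 4. Among the defining markers read after their values were seen, Sox10 reached at most 1.54 CPM, and Mlana and Tyrp1 had 0 counts in all 6 libraries. S100b, a calcium-binding protein used as a diagnostic marker of this tumour, was the exception, with 54.3, 65.1, 60.2, 22.9 and 62.0 CPM in tumours 1 to 5 and 0.182 CPM in muscle. It rose by 8.12 ± 1.15 log2 (SE, edgeR adjusted p = 0.021), and the pooled ratio to the 2 counts of muscle was 279 with an exact 95% counting interval of 77.2 to 2306. Of 18 neural crest genes tested 3 lay above muscle and 3 below, 16.7% each way against 11% and 12.8% of all genes. Ets1, a transcription factor of migrating neural crest, had 24.5, 36.6, 39.2, 23.5 and 63.3 CPM in tumours 1 to 5 and 11.3 CPM in muscle, above muscle in every tumour (edgeR adjusted p = 0.261). Nestin (Nes), the filament of muscle progenitors and of neural stem cells, was below muscle at 2.84 to 35.9 CPM against 232 CPM (edgeR adjusted p = 0.0752).

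Neuronal and secretory granule genes had 5 of 19 above muscle in all 5 tumours (26.3%, against 11% of all genes) and 0 below, and 8 above without tumour 5. Tubb3, the neuronal tubulin, had 5.94, 7.71, 15.7, 17.9 and 164 CPM in tumours 1 to 5 and 0.728 CPM in muscle, and Elavl3, a neuronal RNA-binding protein, had 1.29, 3.47, 2.45, 1.99 and 8.25 CPM in tumours 1 to 5 and 0 CPM in muscle. Among growth factors and receptor kinases 7 of 31 lay above muscle (22.6%, against 11% of all genes) and 6 below (19.4%, against 12.8%). Gfra1, a co-receptor of the kinase Ret, was picked after its values were seen, with 39.8, 64.0, 56.2, 88.2 and 46.4 CPM in tumours 1 to 5 and 1.82 CPM in muscle, and rose by 5.01 ± 0.84 log2 (SE, edgeR adjusted p = 0.0293). Ret, picked in the same way, had 45.2, 95.6, 15.0, 53.9 and 23.8 CPM in tumours 1 to 5 and 2.46 CPM in muscle, above muscle in every tumour but not past the threshold (edgeR adjusted p = 0.134). Of the 6 below, 2 passed the edgeR test. H19, an imprinted long RNA kept in muscle, had 9.13, 89.8, 3.18, 1.30 and 1.38 CPM in tumours 1 to 5 and 2409 CPM in muscle and did not pass (edgeR adjusted p = 0.102). Igf2, its imprinted neighbour, fell to 0 to 0.0861 CPM from 4.91 CPM (edgeR adjusted p = 0.0368). Fgf1, a fibroblast growth factor of muscle fibres, picked after its values were seen, fell to 0.208 to 5.19 CPM from 201 CPM (edgeR adjusted p = 0.026).

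Stress and hypoxia genes lay on both sides of muscle, and the split moved with the scale. Over all genes 11% lay above muscle and 12.8% below. Amino acid response and ER stress genes had 5 of 24 above and 4 below muscle, or 14 and 0 with total counts as the scale. Pdia4, a disulfide isomerase of the endoplasmic reticulum, had 233, 250.1, 239, 684 and 494 CPM in tumours 1 to 5 and 20.1 CPM in muscle, and the chaperone Hsp90b1 had 1184, 1851, 1599, 2324 and 1879 CPM in tumours 1 to 5 and 419 CPM in muscle, both above muscle in every tumour (edgeR adjusted p = 0.0979 and 0.291). Hypoxia and glycolysis genes had 7 of 24 above and 5 below, or 12 and 1 with total counts as the scale. Pkm, pyruvate kinase, had 682, 810.1, 825, 842 and 1145 CPM in tumours 1 to 5 and 3072 CPM in muscle, below muscle in every tumour with a gap of less than 3 log2 (edgeR adjusted p = 0.201). Pfkfb3, which makes the activator of phosphofructokinase, had 55.6, 16.2, 12.5, 21.6 and 18.7 CPM in tumours 1 to 5 and 277 CPM in muscle and fell (edgeR adjusted p = 0.0472). Genes of the p53 pathway had 3 of 16 above and 6 below, or 6 and 2 with total counts as the scale. Cdkn2a, the locus of p16 and of Arf, which acts upstream of p53, had 8.96, 20.4, 2.59, 16.9 and 22.0 CPM in tumours 1 to 5 and 0.637 CPM in muscle (edgeR adjusted p = 0.159). Ccng1, a cyclin induced by p53, had 95.8, 200.4, 62.7, 95.0 and 241 CPM in tumours 1 to 5 and 1939 CPM in muscle and fell by 3.80 log2 (SE 0.74, edgeR adjusted p = 0.0438). Sesn1, a sestrin that restrains growth signalling, fell as well, from 456 CPM to 17.6 to 64.2 CPM (edgeR adjusted p = 0.0292).

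Markers of other cells were read because bulk tissue mixes cell types. Macrophage markers lay above muscle in all 5 tumours for 15 of 19 genes, with 0 below and 1 past the edgeR test. Their summed level was 3009, 3581, 1353, 1752 and 734 CPM in tumours 1 to 5 and 205 CPM in muscle. Fcgr1, the high-affinity IgG receptor, had 12.4, 15.0, 8.72, 8.07 and 6.46 CPM in tumours 1 to 5 and 0.182 CPM in muscle (edgeR log2 fold change 5.73 ± 1.17 (SE), adjusted p = 0.0477). The mannose receptor Mrc1 had 515, 554, 234, 348 and 53.4 CPM in tumours 1 to 5 and 22.5 CPM in muscle, and lysozyme Lyz2 had 734, 443, 242, 319 and 253 CPM in tumours 1 to 5 and 72.9 CPM in muscle. Interferon and antigen presentation genes had 11 of 27 above muscle, 0 below, and 20 above without tumour 5. The MHC class II chain H2-Aa had 237, 273, 429, 634 and 807 CPM in tumours 1 to 5 and 5.64 CPM in muscle, and class I H2-K1 had 631, 895, 79.6, 177 and 23.3 CPM in tumours 1 to 5 and 44.2 CPM in muscle, below muscle in tumour 5 alone. The adjusted p of H2-Aa was 0.0522 by edgeR. T and NK cell genes had 7 of 11 above muscle at low levels, with summed values of 8.42 to 82.6 CPM against 2.18 CPM. Cd4, also carried by macrophages, had 1.03, 1.16, 19.2, 4.78 and 1.46 CPM in tumours 1 to 5 and 0.091 CPM in muscle. Of 10 neutrophil genes tested 0 lay above and 0 below muscle, with summed levels of 9.02 to 108 CPM in the tumours and 51.1 CPM in muscle. The part of these cells in the results above was not tested.

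Endothelial and pericyte markers had 1 of 18 above and 1 below muscle (5.6% each way, against 11% and 12.8% of all genes). Their summed levels were 648 to 2198 CPM in the tumours and 465 CPM in muscle. By gene the list was not raised as a whole, with the mean tumour difference above muscle for 7 genes and below for 11. The list medians were -1.14, -1.14, 0.54, 0.73 and -1.71 log2 in tumours 1 to 5. Kdr, the VEGF receptor, was the 1 above, with 644, 616, 113, 182 and 249.8 CPM in tumours 1 to 5 and 23.1 CPM in muscle, while Prox1 of lymphatic vessels and muscle was the 1 below, at 0 to 0.689 CPM against 7.92 CPM (edgeR adjusted p = 0.176 and 0.0866). Adipocyte genes had 0 of 8 above and 4 below, with summed levels of 39.0 to 273 CPM against 1622 CPM, among them the lipase Pnpla2, which muscle also uses and which fell from 389 CPM to 7.79 to 23.5 CPM (edgeR adjusted p = 0.0173). Red cell genes had 0 above and 0 below. Their summed level was 10241 CPM in tumour 1, 136 to 405 CPM in the others and 5044 CPM in muscle, so that without tumour 1 all 8 lay below. Of 12 B and plasma cell genes 1 lay above, the syndecan Sdc1, which epithelial and tumour cells also make, with 628, 345, 351, 378 and 59.6 CPM in tumours 1 to 5 and 2.73 CPM in muscle (edgeR adjusted p = 0.078). With Sdc1 included, the list summed to 714, 1676, 372, 518 and 61.6 CPM in tumours 1 to 5 and 16.3 CPM in muscle. Its median log2 difference from muscle was 1.83, 6.14, -0.43, 1.65 and -1.22 in tumours 1 to 5. Keratinocyte genes had 1 of 13 above and 1 below, and Trp63, the p63 gene, fell from 31.9 CPM to 0 to 0.385 CPM (edgeR adjusted p = 0.0353). Krt14 was counted at 10.1 CPM in tumour 4 and at no more than 0.0861 CPM elsewhere.

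The tumours varied among themselves. The median SD of log2 CPM over the 5 tumours was 0.95 over all genes tested, 0.63 for the wasting and autophagy list, 1.77 for mitotic genes and 2.77 for sarcomere genes. Tumour 5 was the highest or the lowest tumour for 62.9% of genes, tumour 2 for 54.2% and each other tumour for 24.0% to 27.9%. Tumour 2 was also the shallowest library, with 11820 genes at 10 counts or more against 15667 to 17325 in the other tumours. How much of its share comes from depth was not tested. Different tumours were high for the genes with the widest spread. Gzme, a granzyme, had 15.8, 0, 611, 723 and 0.0417 CPM in tumours 1 to 5 and 0 CPM in muscle, and coagulation factor F5 had 5.51, 11.2, 1123, 928 and 0.25 CPM in tumours 1 to 5 and 0.728 CPM in muscle. Prlr, the prolactin receptor, and Spock3 and Slitrk6 shared with them the high levels in tumours 3 and 4, at 100.5 and 212 CPM for Prlr, 288 and 35.6 CPM for Spock3 and 197 and 92.6 CPM for Slitrk6. Tumour 5 alone had the intestinal growth factor Fgf15, at 330.2 CPM, with 0.172 CPM in tumour 1 and 0 counts in the other tumours and in muscle. Crhbp, which binds corticotropin-releasing hormone, had 0, 0.385, 86.1, 0.278 and 810.0 CPM in tumours 1 to 5 and 1.73 CPM in muscle, high in tumours 3 and 5.

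**Figure D5:**
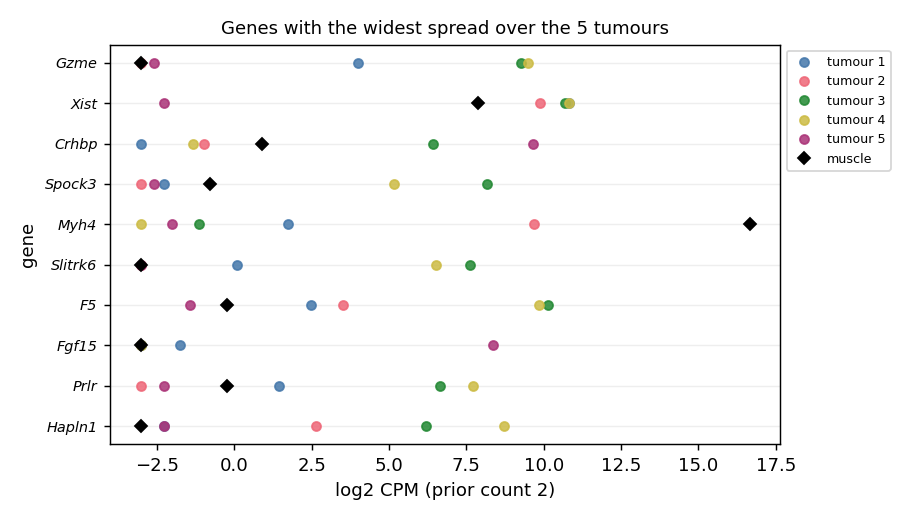
Level of the 10 genes with the widest spread over the tumours (rows) on the log2 CPM scale with a prior count of 2 (x axis), with 1 colour per tumour and a diamond for muscle. Tumours 3 and 4 share the right-hand end for Gzme, F5, Prlr, Spock3 and Slitrk6, tumour 5 for Fgf15 and Crhbp, and tumour 2 stands nearest to muscle for Myh4.

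Hox genes keep a record of position along the body. Of 10 posterior Hox genes tested 0 lay above muscle in all 5 tumours and 4 below. Hoxc10 had 16.7, 26.2, 0, 17.2 and 0.0834 CPM in tumours 1 to 5 and 76.5 CPM in muscle, and Hoxa10 had 20.2, 12.7, 0, 21.7 and 0.375 CPM in tumours 1 to 5 and 18.7 CPM in muscle. Hoxd13 had 0.0861, 0, 0, 0 and 46.6 CPM in tumours 1 to 5 and 0 CPM in muscle. Tumours 1, 2 and 4 thus held Hoxa10 and Hoxc10, tumour 5 held Hoxd13, and tumour 3 had a summed posterior Hox level of 0.0365 CPM, against 53.4 to 72.9 CPM in the other tumours and 146 CPM in muscle. Xist, the RNA of the silenced X chromosome, had 1787, 941, 1666, 1789 and 0.0834 CPM in tumours 1 to 5 and 233 CPM in muscle, so that muscle lay below 4 of the tumours and above tumour 5. The Y-linked Ddx3y had 0 counts in the other libraries and 96.3 CPM in tumour 5. The labels give no sex, and sex entered no fit. Anterior Hox genes had 0 of 12 above muscle and 1 below, and their summed level was 33.8, 65.1, 0.621, 64.1 and 2.29 CPM in tumours 1 to 5 and 18.3 CPM in muscle. Tumours 3 and 5 were low for both Hox groups except for Hoxd13.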

How the data were processed

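RNA from 5 tumours of genotype HprtCre, Ewsr1-loxP and Atf1-loxP and from 1 skeletal muscle was sequenced after ribosomal RNA depletion with a strand-marking kit, per the labels' protocols. The authors deposited raw read counts per Ensembl gene, as whole numbers. Per the submitters' processing notes the tools were STAR 2.7.5a, cutadapt, RSEM, featureCounts and DESeq2, listed without role or order, and the build was mm10. The strand setting is not stated there, nor is the handling of reads with several matches. Reads shared by near-identical genes or by overlapping genes may therefore have been split or dropped, and the values of such genes are uncertain.

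From these counts, genes were kept with filterByExpr of edgeR 4.0.16 (minimum count 10), which left 20869 of 55536, and libraries were scaled by TMM. Level calls used log2 CPM with a prior count of 2 and the same-side rule: all 5 tumours on 1 side of muscle and the nearest at least 1 log2 away. The test was edgeR's robust quasi-likelihood test with Benjamini-Hochberg adjustment at 0.05 in R 4.3.3. Errors are the SE of the edgeR fold change or the SD over 5 tumours. Where a group had 0 counts, folds were computed against a floor of 3 counts, and with 1 to 3 counts an exact conditional binomial interval of 95% is given. Both cover counting error only. Total counts of 2963088 to 25037628 per library set the precision. Pair shares used exon lengths of GENCODE M21, and gene coordinates are those of its build, GRCm38 (mm10). Promoter windows came from RefSeq, build GRCm38.p6. The fit was run on simulated counts with a biological variance of 0.15 for every gene. It recovered 86 of 100 changes of 8-fold and 100 of 100 of 32-fold, with 7 false calls. The simulation held no tumours set apart like tumours 2 and 5, so it does not show how the test performs on these libraries.

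Genes were named by rule: the engineered loci, the 12 furthest from muscle each way among genes that met both the same-side rule and the edgeR test, at 50 CPM or more in every tumour (above) or in muscle (below), 3 by level and 3 by fold change in each of 39 lists, both genes of each pair and the 10 with the largest SD over the tumours at 50 CPM or more in at least 1. Others are marked as picked later, and 2 genes that the rule named are not reported here. The members and lists were chosen with earlier results of these data known. Tumours are numbered in accession order, which pairs nothing. Alternatives were another scaling, test, filter, prior count or distance, a fit of all 12 libraries with limma 3.58.1 and DESeq2 1.42.0 among the tests, and each tumour left out.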

Additional observations from a re-analysis of the deposited data

Results flagged for a closer look

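Among the 5 tumours, 1 tumour lay far from the others, by Dixon's criterion at the 95% level on the log2 CPM scale, for 34 of 150 named genes and 6 of 38 list sums. Chance alone marks about 1 in 20 groups, but the genes were named in part for their spread or after their values were seen, and many move together, so the count is a description and no test. Tumour 5 was the one apart in 19 of these, tumour 2 in 13, tumour 4 in 4, and tumours 1 and 3 in 2 each. The values are the CPM of the tumour apart, set against the range of the other 4 tumours.

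The summed nuclear respiratory chain level of tumour 5 was 15946 CPM, against 4939 to 5912 CPM in the others. The summed mitotic level of tumour 5 was 2917 CPM, against 185 to 403 CPM in the others. The summed DNA replication level of tumour 5 was 2352 CPM, against 270.0 to 484 CPM in the others. The summed ribosome biogenesis level of tumour 5 was 5174 CPM, against 752 to 1042 CPM in the others. The summed posterior Hox level of tumour 3 was 0.0365 CPM, against 53.4 to 72.9 CPM in the others. The summed red cell level of tumour 1 was 10241 CPM, against 136 to 405 CPM in the others.

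Tumour 5 was high for Atp5a1 at 1796 CPM against 422 to 514 CPM, Ccnb1 at 171 CPM against 4.24 to 8.18 CPM and Dct at 269 CPM against 0 to 0.344 CPM. It was also high for Fgf15 at 330.2 CPM against 0 to 0.172 CPM, Hoxd13 at 46.6 CPM against 0 to 0.0861 CPM and Mstn at 198 CPM against 0 to 0.11 CPM. It was also high for Myc at 287 CPM against 8.03 to 19.3 CPM, Ncl at 662 CPM against 91.0 to 139 CPM and Npm1 at 1838 CPM against 132 to 193 CPM. It was also high for Pcna at 264 CPM against 34.4 to 53.5 CPM, Pgam1 at 104.9 CPM against 18.9 to 29.1 CPM and Rpl3 at 1440.2 CPM against 391 to 564 CPM. Tumour 5 was low for Hprt at 4.25 CPM against 14.2 to 21.6 CPM, Rgs2 at 9.55 CPM against 210.4 to 416 CPM and Sdc1 at 59.6 CPM against 345 to 628 CPM.

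Tumour 2 was high for Cacng1 at 4.62 CPM against 0.325 to 0.375 CPM, Ckm at 349 CPM against 0.139 to 0.709 CPM and Ckmt2 at 3.85 CPM against 0.0417 to 0.172 CPM. It was also high for Cox6a2 at 12.3 CPM against 0.0927 to 0.219 CPM, Cox8b at 2.7 CPM against 0 to 0.0861 CPM and Ddah2 at 187 CPM against 57.5 to 74.0 CPM. It was also high for Pgam2 at 5.01 CPM against 0.0417 to 0.146 CPM, Ppp1r3a at 3.47 CPM against 0 to 0.073 CPM and Sox10 at 1.54 CPM against 0 to 0.0861 CPM. Tumour 2 was low for mt-Cytb at 493 CPM against 1289 to 1599 CPM. Tumour 4 was high for Krt14 at 10.1 CPM against 0 to 0.0861 CPM and Myod1 at 0.278 CPM against 0 CPM. Tumour 4 was low for Carmil1 at 53.6 CPM against 92.9 to 109.7 CPM and S100b at 22.9 CPM against 54.3 to 65.1 CPM. Tumour 1 was low for Ednra at 55.8 CPM against 111 to 132 CPM. At or under the floor of 3 counts the marked values show neither a high nor a low level. These were Odf3l2 at 0.0365 CPM in tumour 3, which is 1 count, and Rpl3l at 1.16 CPM in tumour 2, which is 3 counts. They were also mt-Atp6 and mt-Co3 at 0 CPM in tumour 2, where 3 counts are worth 1.16 CPM and the other tumours had 0.365 to 0.603 CPM and 0.742 to 1.42 CPM.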

How the results depend on the processing

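No paired analysis was possible because muscle is 1 library, and the number at the start of its title is shared by tumour 1 alone. No named gene that met either call changed sign under any scaling, test, filter or left-out tumour. The muscle forms of the isoform pairs lay below muscle in 27 to 28 of 28 pairs under all settings run. With total counts as the scale, 5141 genes lay above and 1021 below muscle, 83.4% of those called above against 46.2% with TMM, edgeR called 0 higher and 0 lower (5090 at an unadjusted p under 0.05, and 458 by limma voom), and 20 of 28 other forms lay above. With the nearest tumour at any distance, 4937 lay above and 5229 below, with 19 other forms above, and at 2 log2 or more 908 and 1312. DESeq2's Wald test called 1663 higher and 1589 lower, limma voom 980 lower, and glmTreat against 1 log2 called 9 higher and 247 lower. All 12 libraries in the fit gave 876 higher and 1877 lower. Without tumours 2 and 5, 4750 lay above, edgeR called 965 higher and 2316 lower, and the median SD of log2 CPM fell from 0.95 to 0.46. With 1 tumour left out, 2389 to 3644 genes lay above and 2714 to 3590 below, edgeR called 0 to 994 higher and 0 to 2265 lower, 12 to 15 other forms lay above, and the median SD was 0.65 to 0.99. Of the 51 named genes called by edgeR, 51 lost the call without tumour 1, 3 or 4 and with total counts, and 26 without tumour 2. The cause was not tested. Depth limits tumour 2 most, where 3 counts are 1.16 CPM.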
